A study of Homo sapiens with 12 samples.

Results

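TMEM216 cells were compared with Ctrl cells, both without IGF1, in 6 RNA-seq libraries, 3 per group, taken from a series of 12. The members are these 6 libraries, chosen by their labels, and the comparison runs across 13071 of the 21574 features in the deposited table. A feature was tested if it reached 1 TPM (an abundance per transcript length, scaled to the same total in every library) in 3 or more of the 12 libraries. All 12 libraries come from MDA231-LM2, a metastatic subline of the human triple-negative breast cancer line MDA-MB-231 that was selected in mice for growth in the lung. The groups are Ctrl without IGF1, TMEM216 without IGF1, and the same 2 cell populations with IGF1, labelled Ctrl+IGF1 and TMEM216+IGF1. The labels carry no genotype, construct or promoter for TMEM216, no statement whether a population is 1 clone or a pool, and no dose or time for IGF1. Nothing in them ties a replicate to a culture of its own, so the p-values measure the spread between libraries, and that spread may be technical. TMEM216 cannot be told apart from other differences between the 2 populations, and an effect below means a difference between them.

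TMEM216 is a membrane protein of the transition zone, the gate at the base of the primary cilium, and its mutation causes ciliopathies such as Joubert and Meckel syndromes. Among the genes described here, many belong to the amino acid response: the transcription factor ATF4 is made when cells run short of amino acids or meet other stress, and it switches on enzymes of amino acid synthesis, amino acid carriers and the synthetases that charge tRNAs. Others are immediate early genes of the AP-1 and EGR kind, which growth factors and stress induce within minutes through the MAP kinase ERK, or inflammatory cytokines, which this cell line secretes at high levels.

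TMEM216 itself stood at 30.1, 24.02 and 25.1 TPM in the 3 Ctrl libraries and at 163, 222 and 249.6 TPM in the 3 TMEM216 libraries. The lowest TMEM216 library was far above the highest Ctrl library, and the log2 difference, taken on log2(TPM + 1) as all differences here, was 2.94 (SE 0.14, adjusted p = 9.35e-07), an 8.02-fold ratio of means. The cell type matched its label: vimentin (VIM) lay between 5921 and 7272 TPM and the estrogen receptor gene ESR1 never passed 0.204 TPM in the 6 libraries, and the T cell gene CD3D, the endothelial cadherin CDH5 and the fibroblast gene LUM were listed at 0 in all of them. Summed levels of the luminal marker list (15 genes) ran from 372 to 381 TPM in Ctrl and from 306 to 334 TPM in TMEM216, those of the endothelial list (12 genes) from 235 to 248 and from 195 to 210.3 TPM, and those of the fibroblast list (15 genes) from 70.6 to 78.9 and from 53.7 to 55.6 TPM. Immune markers (22 genes, 11 at 0 in each group) summed to 10.2 to 12.7 TPM in Ctrl and 9.51 to 11.0 TPM in TMEM216. COL1A1 alone made up 58.6 TPM of the fibroblast sum on average in Ctrl and 42.4 TPM in TMEM216. In the endothelial list ESAM alone averaged 160 TPM in Ctrl and 145 TPM in TMEM216. The highest luminal gene was XBP1 in Ctrl, at 131 TPM, and MLPH in TMEM216, at 141 TPM. The part of these lists in the results was not tested, and in bulk RNA fewer cells of a type and less RNA per cell cannot be told apart. Between 12596 and 12757 features reached 1 TPM per library. TPM keeps no read depth, so no counting interval can be given. TMEM216 replicate 1 and Ctrl+IGF1 replicate 3 stood apart, with a median log2(TPM + 1) of 4.54 and 4.43 against 4.60 and 4.63, and 4.59 and 4.66, in the other libraries of their groups. Over all tested features TMEM216 replicates 1 and 3 correlated at 0.978, less than any pair of a Ctrl and a TMEM216 library (0.981 to 0.987). Pairs of Ctrl libraries correlated at 0.988 to 0.989.

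Across all features the shift was small and mostly downward. The median log2 difference was -0.048 (-0.025 without TMEM216 replicate 1), 8101 features (62.0%) lay below 0, and 12545 (96.0%) lay within 0.5 of 0. At a Benjamini-Hochberg adjusted p under 0.05 from limma, fitted on all 12 libraries, 143 features passed (1.09% of those tested): 123 fell (0.941%) and 20 rose (0.153%). Higher features made up 14% of the calls, against 32.8% after quantile normalization and 31.2% after median-of-ratios scaling, so the size of the imbalance depends on the scaling. The 123 lower features had a median of -0.59 and the 20 higher features a median of 0.57. Only 17 calls reached a log2 difference of 1 in size, 15 of them lower. The 3 libraries of one group lay wholly below those of the other in 2032 features lower in TMEM216 (15.5%) and 824 higher (6.3%), and all 143 called features were among them. Leaving out single libraries changed the count of calls much more than the sizes. With 1 library left out in turn, 37 of the 143 calls held in all 12 fits. No called feature moved by more than 1.5 times. Each of these fits also has fewer samples. None changed sign, but with groups that do not overlap, leaving out 1 library could not change a sign. Those 37, 32 lower and 5 higher, are called held below. They are the 37 calls of smallest adjusted p, up to IL24 at 0.00768, and no call from PLAT at 0.00855 upward held. Holding thus follows the ranking by p and is not separate evidence. Without TMEM216 replicate 1 and Ctrl+IGF1 replicate 3 together, 288 features passed, 53 of them higher.

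**Figure D1:**
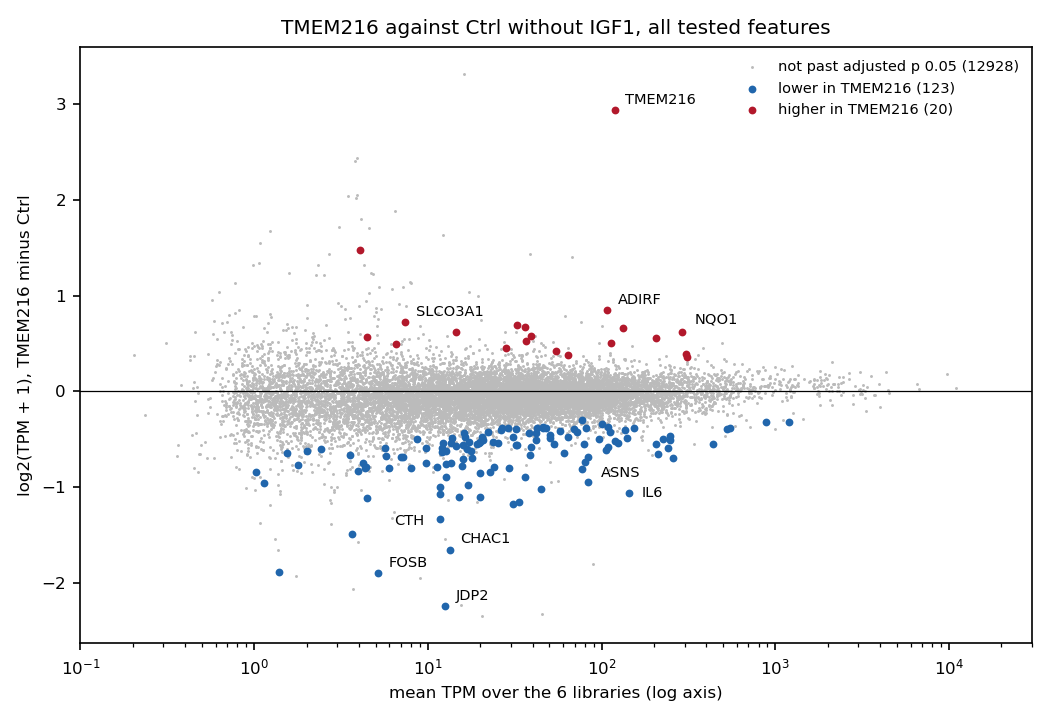
Each point is 1 of 13071 features, with its mean TPM over the 6 libraries on a log axis and its log2(TPM + 1) difference, TMEM216 minus Ctrl, on the vertical axis. Blue points are the 123 lower and red points the 20 higher features past an adjusted p of 0.05, grey points the rest; TMEM216, at 2.94, lies far above the other red points, and the lower calls reach down to JDP2 at -2.24.

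The leading genes, the 15 largest falls and 15 largest rises past the threshold with a mean of 5 TPM or more, fell into a few functions. Of the 15 that fell most, 8 are amino acid or stress genes of the ATF4 kind (CHAC1, CTH, PCK2, TRIB3, NUPR1, SESN2, ASNS and PSPH), 3 are AP-1 or early response factors (JDP2, FOSB and EGR1), and the others are secreted signals, a protease and an elongation factor (IL6, EDN1, MMP3 and EEF1A2). The rises were led by TMEM216 and, far behind it, by the adipogenesis-linked gene ADIRF, the organic anion carrier SLCO3A1, the class II antigen chain HLA-DRA, the fatty acid desaturase SCD and the quinone reductase NQO1. SLCO3A1 stood at 5.55, 5.10 and 5.40 TPM in Ctrl and 9.42, 9.91 and 9.19 TPM in TMEM216, a difference of 0.73 (SE 0.0922, adjusted p = 0.00218) between groups that each spanned under 1 TPM. Among the 20 higher features, NQO1, SLCO3A1, COL6A1, HLA-DRA and TMEM216 itself held. Of the 143 called features, 34 overlap another tested feature in the GENCODE v29 annotation. The sources used here do not give the library strand, so reads of overlapping genes on opposite strands may not be told apart. This touches IL6 (with STEAP1B), PCK2 (with NRL), FOSB (with ERCC1), TAP1 (with PSMB9) and MARS1 (with DDIT3 and ARHGAP9). SLC6A9, SLC1A5, MAFF, KRT8, LOX, ADIRF, YARS1, SIRT2, MCAM and PRKCZ, also called and named here, overlap other genes in the same way. Near-identical copies make EEF1A2, CXCL1, AKR1C3 and the HLA genes uncertain in a like way.

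**Figure D2:**
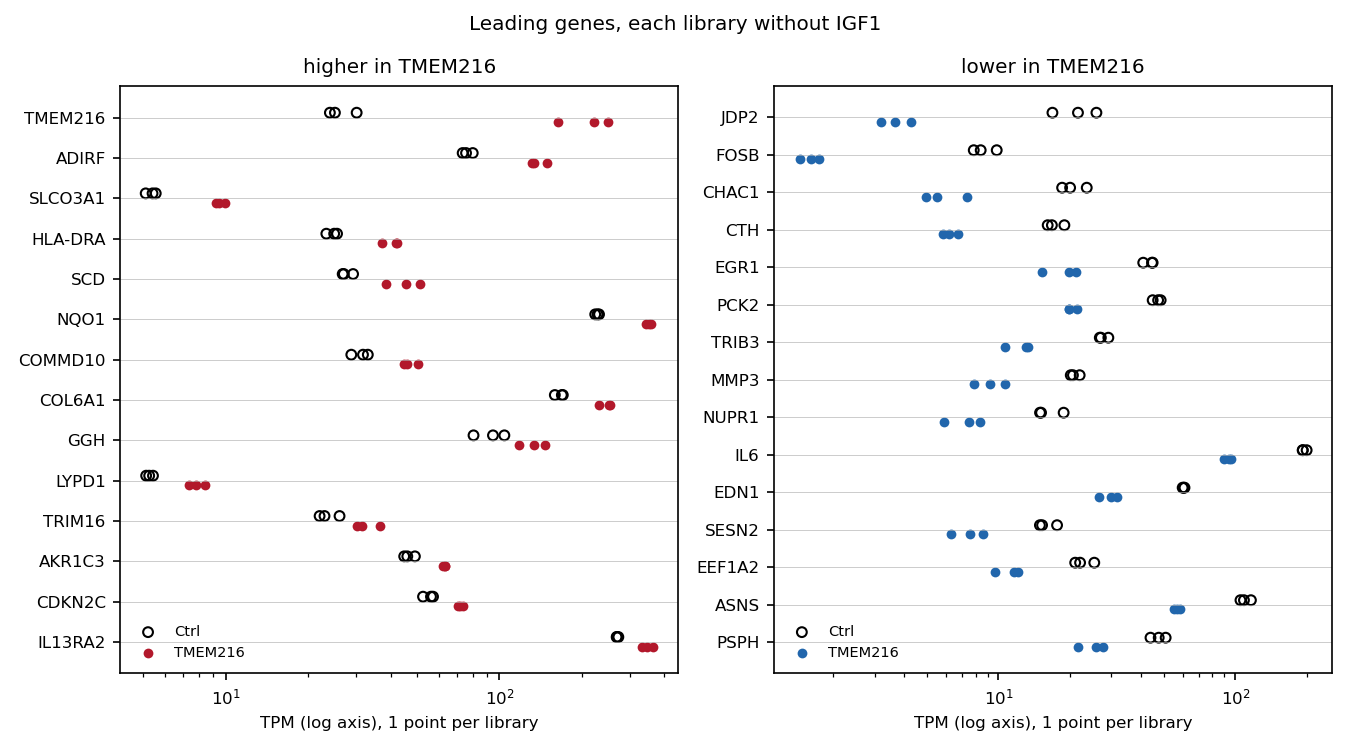
TPM of each library on a log axis for 14 of the 15 leading higher genes (left, red) and the 15 leading lower genes (right, blue); open circles are the 3 Ctrl libraries and filled circles the 3 TMEM216 libraries. In all genes shown the groups do not overlap, which the naming rule required, and within-group spread is narrow for IL6, EDN1, ASNS and NQO1 and wide for JDP2 and TMEM216.

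The amino acid response gave the largest block of lower genes. Among 148 tested members of 6 lists (ATF4 effectors, cytosolic tRNA synthetases, amino acid carriers, and enzymes of serine, asparagine-glutamate-proline and sulfur amino acid metabolism) 24 fell (16.2%, against 0.941% of all features), none rose, and 10 held. The median over the 148 was -0.13, and the libraries did not overlap, lower, in 55 (37.2%, against 15.5%). To show what several of these genes share in sequence, promoters from 250 bases before to 50 bases after the start, taken from RefSeq on GRCh38.p14, were searched on both strands for TGATGNAA, the composite element that ATF4 can bind together with a C/EBP factor. It was found in 5 of the 19 promoters matched for the 24 lower genes (26.3%), in 12 of 99 matched members of the same lists that did not pass (12.1%), in none of 72 other lower genes, in 1.62% of the promoters of tested features and in 3.67% of all RefSeq promoters of this length. The 5 are printed 5′ to 3′ on the strand of the gene, with the element in capitals (some read it on the opposite strand):
ASNS: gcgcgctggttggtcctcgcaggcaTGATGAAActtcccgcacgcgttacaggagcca
CHAC1: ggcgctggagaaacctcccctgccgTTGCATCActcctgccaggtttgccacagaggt
CARS1: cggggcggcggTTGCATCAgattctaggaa
MARS1: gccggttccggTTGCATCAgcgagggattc
SLC3A2: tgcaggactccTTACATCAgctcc
They lie at chr7:97872444-97872501, minus strand, for ASNS, chr15:40953237-40953294, plus strand, for CHAC1, chr11:3057407-3057436, minus strand, for CARS1, chr12:57488053-57488082, plus strand, for MARS1, and chr11:62881725-62881748, plus strand, for SLC3A2. In ASNS the element starts 68 bases before the annotated start and in CHAC1 209 bases before it. CARS1 and MARS1 hold it across the start itself, and SLC3A2 shortly after it. A match is a description of the letters, not a bound site.

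Asparagine synthetase, ASNS, whose promoter opens the lines above, stood at 109, 116.4 and 105 TPM in Ctrl and 55.2, 58.4 and 56.7 TPM in TMEM216. The TMEM216 libraries lay within a few TPM of one another and far below Ctrl, and the log2 difference was -0.94 (SE 0.0748, adjusted p = 6.76e-05). CHAC1, an enzyme that breaks down glutathione, stood at 18.6, 20.1 and 23.6 TPM against 7.38, 5.52 and 4.94 TPM. The fall in CHAC1, -1.65 (SE 0.15, adjusted p = 1.65e-04), was the largest among the called genes of these lists, and TMEM216 replicate 1 was the least reduced library. In sulfur amino acid metabolism CTH, which makes cysteine from cystathionine, stood at 16.1, 16.8 and 18.98 TPM against 6.17, 6.76 and 5.84 TPM, with no overlap and a difference of -1.33 (SE 0.13, adjusted p = 2.35e-04). In serine synthesis the last step, PSPH, fell from 47.5, 43.8 and 50.8 TPM to 21.6, 25.7 and 27.7 TPM, a difference of -0.90 (SE 0.0957, adjusted p = 6.06e-04). The middle step, PSAT1, fell from 294, 293 and 284 TPM to 196, 209 and 206 TPM, a difference of -0.51 (SE 0.0684, adjusted p = 0.00352). The 3 TMEM216 libraries of both genes lay close together and clear of Ctrl. The first step, PHGDH, showed the smallest call of the chain at -0.30 (SE 0.0638, adjusted p = 0.0484), while the one-carbon enzymes MTHFD2 at -0.62 (adjusted p = 0.104) and SHMT2 at -0.38 (adjusted p = 0.104) did not pass. Alanine transaminase GPT2 stood at 31.1, 30.05 and 31.2 TPM against 18.6, 16.9 and 16.7 TPM, a difference of -0.79 (SE 0.0789, adjusted p = 3.52e-04), and proline synthesis gene PYCR1 fell by 0.55 (SE 0.11, adjusted p = 0.0289). PCK2, the mitochondrial enzyme that makes phosphoenolpyruvate and a well-known ATF4 target, stood at 47.2, 44.8 and 48.4 TPM against 19.8, 21.5 and 19.8 TPM, a difference of -1.16 (SE 0.0752, adjusted p = 1.20e-05), the smallest adjusted p of any lower gene but IL6.

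Among 29 tested amino acid carriers 4 fell (13.8%, against 0.941% of all features) and none rose. The glycine carrier SLC6A9 stood at 15.998, 17.5 and 16.7 TPM in Ctrl and 8.21, 8.54 and 8.92 TPM in TMEM216, a difference of -0.89 (SE 0.12, adjusted p = 0.00443) that held. The glutamine carrier SLC1A5 stood at 308, 329 and 319.9 TPM against 168, 218 and 209 TPM, with TMEM216 replicate 1 lowest, and its difference of -0.69 (SE 0.10, adjusted p = 0.00855) lost its call without Ctrl replicate 2 (-0.58); here and below, brackets after such a list of libraries give the log2 difference nearest to 0 in any leave-one-out fit, each library having been left out on its own. SLC3A2, the heavy chain that brings several carriers to the membrane, fell from 587, 586 and 624 TPM to 436, 478 and 448 TPM. Its light-chain partners SLC7A5, at -0.31 (adjusted p = 0.0900), and the cystine carrier SLC7A11, at -0.60 (adjusted p = 0.145), did not pass. The neutral amino acid carrier SLC1A4 fell by 0.83 (SE 0.17, adjusted p = 0.0395).

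Of 24 cytosolic aminoacyl-tRNA synthetases 4 fell (16.7%, against 0.941% of all features) and none rose, with a median of -0.15. Of the 20 mitochondrial synthetases none passed, with a median of -0.018. GARS1, the glycyl-tRNA synthetase, stood at 284, 287 and 292 TPM in Ctrl and 160.4, 199.95 and 217 TPM in TMEM216, a difference of -0.59 (SE 0.11, adjusted p = 0.0243). The synthetases for cysteine, CARS1, at -0.48 (SE 0.0762, adjusted p = 0.00974), for methionine, MARS1, at -0.46 (SE 0.0935, adjusted p = 0.0399), and for tyrosine, YARS1, at -0.41 (SE 0.0862, adjusted p = 0.0471), fell too. WARS1 at -0.62 (adjusted p = 0.0688), SARS1 at -0.55 (adjusted p = 0.0670) and AARS1 at -0.48 (adjusted p = 0.0854) had differences of like size and did not pass. The difference between the cytosolic and the mitochondrial list was not tested.

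ATF4 stood at 742, 746 and 738 TPM in Ctrl and 623, 592 and 599 TPM in TMEM216. All 3 TMEM216 libraries were below all 3 Ctrl libraries, but the difference of -0.29 (adjusted p = 0.118) did not pass. Of 39 tested effectors and partners of ATF4, 9 fell (23.1%, against 0.941% of all features) and none rose. In all, 35 lay below 0, against 62.0% of all features, with a median of -0.23 that stayed negative under every setting run. TRIB3, a pseudokinase that restrains ATF4, stood at 29.1, 26.8 and 27.1 TPM against 13.3, 10.6 and 13.04 TPM, at -1.11 (SE 0.0925, adjusted p = 8.72e-05). SESN2, a leucine sensor that holds back mTORC1, stood at 15.3, 14.96 and 17.7 TPM against 6.27, 7.57 and 8.64 TPM, at -1.005 (SE 0.11, adjusted p = 7.37e-04). ADM2, a peptide hormone of the adrenomedullin family, was low in both groups, at 6.31, 5.86 and 5.34 TPM and 1.34, 1.43 and 1.54 TPM, and fell by 1.49 (SE 0.12, adjusted p = 6.76e-05). These 3 held and their libraries kept well apart. NUPR1, a stress-inducible chromatin protein, fell by 1.07 (SE 0.23, adjusted p = 0.0497) and the pro-apoptotic gene BBC3 fell by 0.80 (SE 0.15, adjusted p = 0.0289), while DDIT3, the CHOP factor, at -0.36 (adjusted p = 0.220) did not pass.

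Endoplasmic reticulum genes, which ATF4 shares with other branches of the unfolded protein response, gave a single call in 35 tested: XBP1, a transcription factor of that response, fell and stood at 132, 134 and 127 TPM in Ctrl and 80.5, 88.3 and 93.3 TPM in TMEM216, a difference of -0.58 (SE 0.0916, adjusted p = 0.00974). The chaperone HSPA5 stood at 402, 400.04 and 399.6 TPM against 364, 411 and 402 TPM, overlapping groups, with a difference of -0.032 (adjusted p = 0.942), and HERPUD1 at -0.40 (adjusted p = 0.132). The median of the list was -0.005. Cytosolic heat shock genes (23 tested), CCT chaperonin subunits (8) and mitochondrial chaperones and proteases (13) had no call. XBP1 lost its call without Ctrl replicates 1 and 2 (-0.52).

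Fragile calls were common in the amino acid block, as among all 143 calls, of which 37 held. Over the 143, leaving out Ctrl replicates 1, 2 or 3 ended 95, 102 and 96 calls, and TMEM216 replicates 1, 2 or 3 ended 65, 90 and 50. Leaving out Ctrl replicates 1, 2 or 3 ended 12, 13 and 13 of the 24 calls, TMEM216 replicates 1, 2 or 3 ended 9, 10 and 9, Ctrl+IGF1 replicates 1 and 2 ended 7 and 2, and TMEM216+IGF1 replicates 1, 2 or 3 ended 6, 4 and 7. The smallest difference left in any of these fits was 0.787 times its full value. ASNS, PSPH, PSAT1, CTH, CHAC1, GPT2, SLC6A9, ADM2, TRIB3 and SESN2 are the 10 that held, and PCK2, counted with the tricarboxylic acid genes, held as well.

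**Figure D3:**
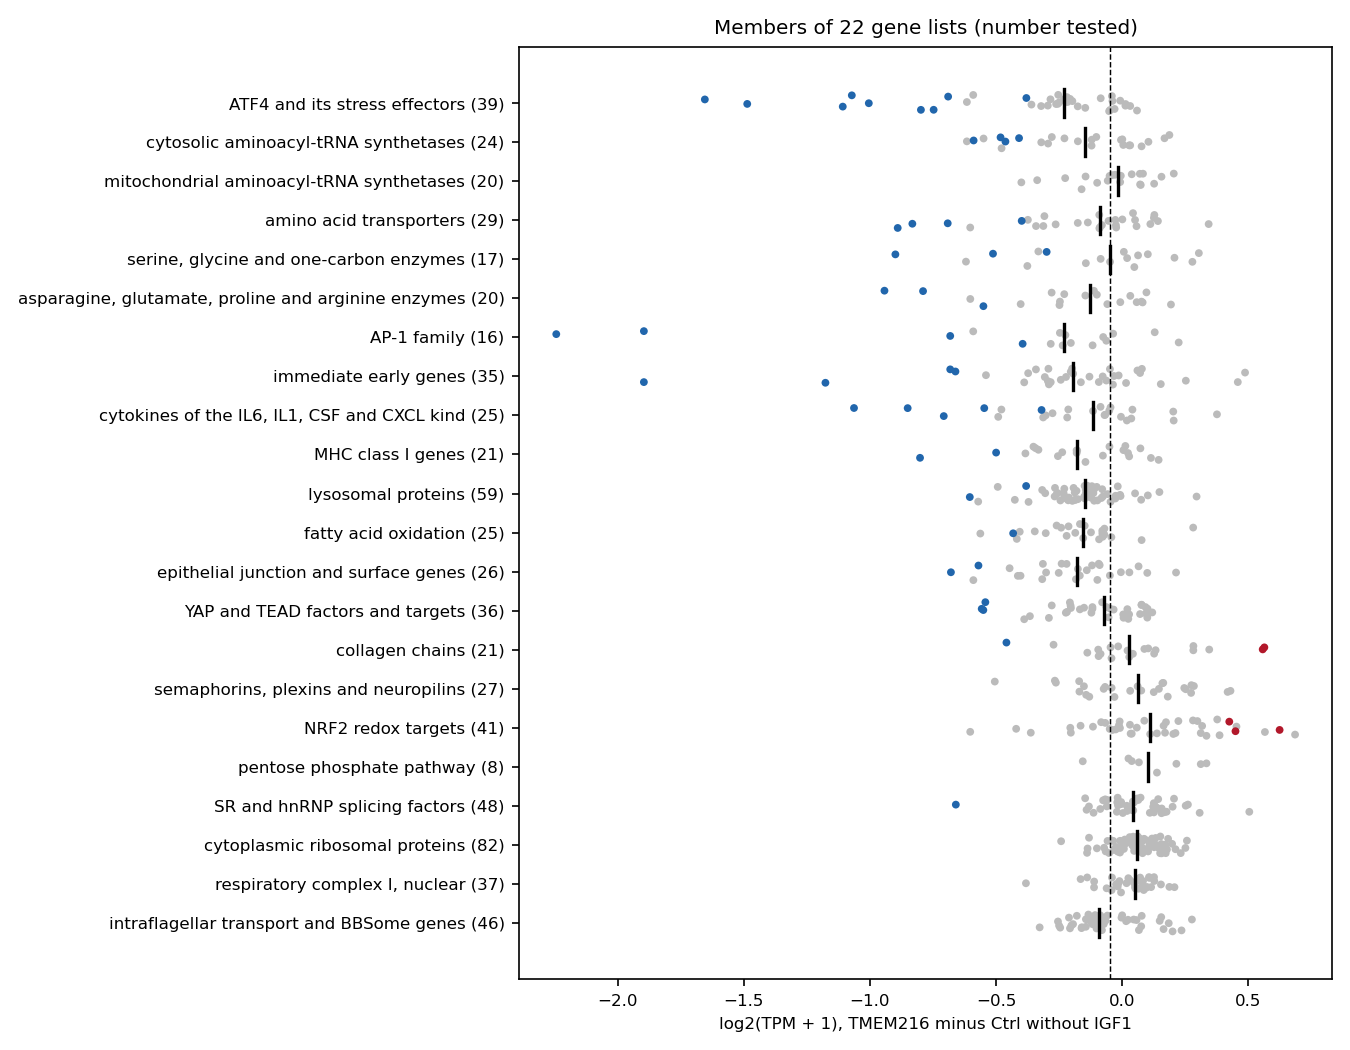
Each point is 1 tested member of 1 of 22 gene lists, placed by its log2(TPM + 1) difference, TMEM216 minus Ctrl; blue points fell, red points rose, grey points did not pass, black bars are list medians and the dashed line is the median of all features at -0.048. Lower calls gather in the ATF4, amino acid, AP-1, immediate early and cytokine lists, and the 82 ribosomal protein genes form a narrow band with no call.

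Early response factors were the next group. In 71 tested genes of 3 lists (AP-1 family, immediate early genes and ERK feedback genes) 7 fell (9.86%, against 0.941% of all features), none rose, and 4 held. The median over them was -0.15. JDP2, a repressor that pairs with JUN proteins, stood at 25.9, 21.7 and 16.9 TPM in Ctrl and 3.18, 3.66 and 4.28 TPM in TMEM216, the largest fall of any leading gene at -2.24 (SE 0.32, adjusted p = 0.00570). FOSB, an activating AP-1 subunit, stood at 9.83, 7.86 and 8.41 TPM against 1.61, 1.74 and 1.44 TPM, and FOS, its best-studied relative, at 108, 101 and 99.7 TPM against 76.4, 59.6 and 56.7 TPM. Both sets of libraries were apart, widely for FOSB at -1.90 (SE 0.16, adjusted p = 8.72e-05) and less so for FOS at -0.68 (SE 0.11, adjusted p = 0.0105). The call of FOS was lost without Ctrl replicates 1, 2 and 3 and TMEM216 replicate 2 (-0.60). MAFF, a small Maf protein, fell by 0.39 (SE 0.0829, adjusted p = 0.0471) and lost its call without Ctrl replicates 1, 2 and 3, Ctrl+IGF1 replicate 1, TMEM216 replicates 1 and 2 and TMEM216+IGF1 replicates 1, 2 and 3 (-0.34). JUN at -0.063 (adjusted p = 0.768), JUNB at -0.28 (adjusted p = 0.242), FOSL1 at 0.22 (adjusted p = 0.442) and ATF3 at -0.59 (adjusted p = 0.0821) did not pass. JDP2 and FOS are neighbouring genes.

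EGR1, the zinc finger factor of the early response, stood at 44.8, 40.8 and 44.5 TPM in Ctrl and 21.3, 19.8 and 15.2 TPM in TMEM216. TMEM216 replicate 3 was the lowest library, and the difference was -1.18 (SE 0.13, adjusted p = 6.20e-04). DUSP1, a phosphatase that switches MAP kinases off, stood at 96.8, 97.96 and 98.4 TPM against 48.4, 58.9 and 59.7 TPM, with TMEM216 replicate 1 lowest, a difference of -0.81 (SE 0.0982, adjusted p = 0.00166). Both held. KLF4 fell by 0.66 (SE 0.12, adjusted p = 0.0288), whereas the ERK feedback gene DUSP6 at -0.19 (adjusted p = 0.356), the early gene IER3 at -0.37 (adjusted p = 0.0953) and MYC at -0.31 (adjusted p = 0.132) did not pass. Promoter stretches of 3 of these genes are shown because they carry elements through which serum and cyclic AMP act on early genes; capitals mark the CArG box in EGR1 and the full cyclic AMP response element TGACGTCA in DUSP1 and MAFF:
EGR1: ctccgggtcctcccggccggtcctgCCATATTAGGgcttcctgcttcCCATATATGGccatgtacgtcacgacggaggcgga
DUSP1: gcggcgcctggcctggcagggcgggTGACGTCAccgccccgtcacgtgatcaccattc
MAFF: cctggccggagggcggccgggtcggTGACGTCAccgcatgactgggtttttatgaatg
The stretches lie at chr5:138465349-138465430, plus strand, for EGR1, chr5:172771288-172771345, minus strand, for DUSP1, and chr22:38201915-38201972, plus strand, for MAFF (GRCh38.p14, RefSeq, 5′ to 3′ on the gene's strand). EGR1 holds 2 CArG boxes there. The matched promoters of JDP2, FOSB, FOS and KLF4, the other early response calls, held neither element. The search covered only 250 bases before to 50 bases after the start, so elements farther away would be missed. In the immediate early list 2 of 31 matched promoters held a CArG box and 0 held TGACGTCA. In the AP-1 list 0 of 14 held a CArG box and 3 held TGACGTCA. Over the 91 matched promoters of lower features a CArG box was present in 3 (3.3%), against 1.09% of tested features, and TGACGTCA, searched on both strands, in 5 (5.49%) against 3.32%. AP-1 sites, TGANTCA, were present in 8 (8.79%) against 4.36%.

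Leaving out Ctrl replicates 1, 2 or 3 ended 3 of the 7 early response calls each time, as did TMEM216 replicate 2; TMEM216 replicate 1 and Ctrl+IGF1 replicate 1 ended 2 each, and TMEM216+IGF1 replicates 1, 2 and 3 ended 2, 1 and 1. JDP2, FOSB, EGR1 and DUSP1 held, and no difference shrank below 0.815 times its full value.

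Inflammatory genes had calls in both directions. Over 211 tested genes in 10 lists of cytokines, their signalling and antigen presentation, 10 fell (4.74%, against 0.941% of all features), 3 rose (1.42%, against 0.153%), and 8 held. IL6, the cytokine that signals through STAT3, stood at 193, 200.1 and 192 TPM in Ctrl and 95.6, 93.7 and 89.3 TPM in TMEM216, with a spread of only a few TPM in either group and a difference of -1.06 (SE 0.0615, adjusted p = 4.85e-06). CXCL1, a chemokine for neutrophils, stood at 245, 232 and 255 TPM against 168, 177 and 156 TPM, at -0.55 (SE 0.0691, adjusted p = 0.00218). IL24 stood at 25.1, 25.7 and 26.8 TPM against 12.4, 14.3 and 15.1 TPM, at -0.85 (SE 0.13, adjusted p = 0.00768). These cytokines and IL1A, the alarm signal of the interleukin 1 family, held; IL1A stood at 19.6, 19.7 and 20.95 TPM against 12.1, 10.3 and 13.5 TPM, at -0.71 (SE 0.0988, adjusted p = 0.00451). The granulocyte growth factor CSF3, one of the most abundant cytokine transcripts of these cells, fell least, from 1352, 1329 and 1311 TPM to 1080.3, 1091 and 1027 TPM, a difference of -0.32 (SE 0.0606, adjusted p = 0.0288), and its call was lost without Ctrl replicates 1, 2 and 3, TMEM216 replicates 1, 2 and 3 and TMEM216+IGF1 replicate 1 (-0.29). CXCL8 at -0.22 (adjusted p = 0.118), IL1B at -0.30 (adjusted p = 0.0529) and the macrophage growth factor CSF1 at 0.38 (adjusted p = 0.0529) did not pass. In the cytokine list 5 of 25 fell (20%, against 0.941% of all features), with a median of -0.12. EDN1, which encodes the vasoconstrictor peptide endothelin 1, stood at 60.5, 61.01 and 59.9 TPM against 31.8, 29.8 and 26.5 TPM, a difference of -1.02 (SE 0.0770, adjusted p = 5.03e-05) that held. The remaining changes of this kind were single genes: NFKBIE, an inhibitor of NF-kB, fell by 0.50 (SE 0.0880, adjusted p = 0.0196), the prostaglandin synthase PTGS2 fell by 0.54 (SE 0.11, adjusted p = 0.0469), the prostaglandin and steroid reductase AKR1C3 rose from 49.1, 44.9 and 46.1 TPM to 62.4, 63.4 and 63.1 TPM, and the interleukin 13 decoy receptor IL13RA2 rose from 269, 268 and 272 TPM to 346, 333 and 364 TPM.

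Antigen presentation genes of class I and class II moved in opposite directions in single members. TAP1, the peptide pump that loads class I molecules, stood at 35.6, 37.4 and 39.9 TPM in Ctrl and 19.2, 23.5 and 20.9 TPM in TMEM216, at -0.80 (SE 0.10, adjusted p = 0.00211), and HLA-E, a non-classical class I chain, at 267, 259 and 267 TPM against 182, 192 and 186 TPM, at -0.50 (SE 0.0634, adjusted p = 0.00218). Both fell and held, and TMEM216 libraries lay below Ctrl without overlap. The classical chains HLA-B at -0.33 (adjusted p = 0.376) and HLA-C at -0.25 (adjusted p = 0.237) and the immunoproteasome subunit PSMB8 at -0.35 (adjusted p = 0.0681) did not pass. Of 21 class I genes tested 2 fell (9.52%, against 0.941% of all features), with a median of -0.18. HLA-DRA, a class II chain, rose from 23.3, 24.9 and 25.5 TPM to 42.1, 37.1 and 41.8 TPM, a difference of 0.69 (SE 0.0992, adjusted p = 0.00550), and was the one call among 12 class II genes. Its invariant chain partner CD74 at 0.37 (adjusted p = 0.0821) and the class II activator CIITA at 0.29 (adjusted p = 0.525) did not pass. Interferon response genes (46 tested) and complement and coagulation genes (22 tested) had no call. Leaving out any 1 of the Ctrl replicates ended 5 of the 13 inflammatory and antigen presentation calls, TMEM216 replicates 1, 2 and 3 ended 3, 5 and 5, TMEM216+IGF1 replicates 1, 2 and 3 ended 3, 1 and 1, Ctrl+IGF1 replicate 1 ended 1, and the smallest difference left was 0.865 of the full value.

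Matrix, adhesion and epithelial genes changed in both directions. Over 312 tested genes in 16 lists 15 fell (4.81%, against 0.941% of all features) and 4 rose (1.28%, against 0.153%), and 4 held. MMP3, a protease that cuts proteoglycans and other matrix proteins, stood at 20.2, 22.02 and 20.6 TPM in Ctrl and 7.92, 9.18 and 10.6 TPM in TMEM216, at -1.11 (SE 0.12, adjusted p = 6.21e-04), and was the one call among 10 matrix metalloproteases; MMP1 lay at -0.36 (adjusted p = 0.249). The plasminogen activator PLAT stood at 112, 114 and 113 TPM against 73.2, 83.3 and 82.4 TPM and fell by 0.50 (SE 0.0760, adjusted p = 0.00855), and its inhibitor relative SERPINB2 fell by 0.65 (SE 0.12, adjusted p = 0.0243). PLAT lost its call without Ctrl replicate 2 (-0.44). Collagen chains split: COL6A1, of microfibrillar collagen, rose from 171, 169 and 159 TPM to 253, 251 and 232 TPM, a difference of 0.56 (SE 0.0784, adjusted p = 0.00472), and COL6A3 from a low level of 3.06, 3.46 and 3.66 TPM to 6.28, 5.25 and 4.98 TPM, a difference of 0.56 (SE 0.12, adjusted p = 0.0471), whereas COL1A1, of fibrillar collagen, fell from 59.7, 57.2 and 58.8 TPM to 42.7, 44.01 and 40.3 TPM, a difference of -0.46 (SE 0.0749, adjusted p = 0.0115). The third microfibrillar chain, COL6A2, lay at -0.10 (adjusted p = 0.686). COL1A1 lost its call without Ctrl replicates 1, 2 and 3 (-0.43) and COL6A3 without Ctrl replicates 1, 2 and 3, Ctrl+IGF1 replicates 1 and 2, TMEM216 replicates 1, 2 and 3 and TMEM216+IGF1 replicates 1, 2 and 3 (0.48), while COL6A1 held. LOX, which crosslinks collagen, fell by 0.56 (SE 0.10, adjusted p = 0.0206).

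Epithelial genes were lower where they passed. Of 26 junction and surface genes 22 lay below 0, against 62.0% of all features, and 2 fell (7.69%, against 0.941%). These were CLDN1, a tight junction protein, at -0.68 (SE 0.15, adjusted p = 0.0499), and CD24, at -0.57 (SE 0.0964, adjusted p = 0.0153). Of 14 keratins 2 fell (14.3%, against 0.941%). KRT8 stood at 634, 612 and 621 TPM in Ctrl and 494, 479 and 462 TPM in TMEM216, a difference of -0.38 (SE 0.0593, adjusted p = 0.00957), and KRT19 changed by -0.38 (SE 0.0806, adjusted p = 0.0471). KRT18, the filament partner of KRT8, lay at -0.0013 (adjusted p = 0.998). KRT8 and KRT18 are neighbours whose annotations overlap on opposite strands. Among YAP and TEAD factors and targets 3 of 36 fell (8.33%, against 0.941% of all features) and none rose. ANKRD1, a YAP target that encodes an ankyrin repeat protein, stood at 508, 521 and 525 TPM against 365, 360.5 and 336 TPM, a difference of -0.55 (SE 0.0608, adjusted p = 7.37e-04) that held, and the DNA-binding partners TEAD2, at -0.56 (SE 0.0893, adjusted p = 0.0105), and TEAD3, at -0.54 (SE 0.0852, adjusted p = 0.00967), fell. The best-known targets CCN1 at -0.39 (adjusted p = 0.0529) and CCN2 at -0.29 (adjusted p = 0.321), and YAP1 itself at 0.10 (adjusted p = 0.891), did not pass. Of 22 tested genes in a list for lung metastasis of this line, CXCL1 and PTGS2 fell (9.09%, against 0.941% of all features) and ADIRF and IL13RA2 rose (9.09%, against 0.153%). The median of these 22 was 0.13, and their libraries did not overlap in 11 higher members (50%, against 6.3% of all features) and 4 lower ones (18.2%, against 15.5%). ADIRF stood at 79.9, 73.4 and 75.5 TPM in Ctrl and 149.9, 132 and 134 TPM in TMEM216, with no overlap and a difference of 0.85 (SE 0.16, adjusted p = 0.0243), and lost its call without Ctrl replicates 1, 2 and 3 and TMEM216 replicates 1 and 2 (0.79). Integrin chains (13 tested), focal adhesion proteins (30) and laminins with basement membrane proteins (15) had no call. Leaving out Ctrl replicates 1, 2 or 3 ended 11, 15 and 14 of the 19 matrix, adhesion and epithelial calls, TMEM216 replicates 1, 2 or 3 ended 7, 13 and 5, Ctrl+IGF1 replicates 1 and 2 ended 5 and 1, TMEM216+IGF1 replicates 1, 2 or 3 ended 5, 5 and 4, and the smallest difference left was 0.741 of the full value.

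Redox, lipid and carbon genes had calls in both directions. Over 241 tested genes in 10 lists 3 fell (1.24%, against 0.941% of all features) and 4 rose (1.66%, against 0.153%), and the median was -0.01. Among 41 targets of NRF2, the transcription factor of the response to oxidants and electrophiles, 3 rose (7.32%, against 0.153% of all features) and none fell. The libraries lay higher without overlap in 15 of them (36.6%, against 6.3% of all features), and the median was 0.11. NQO1, the standard NRF2 target, stood at 224, 228 and 231 TPM in Ctrl and 344, 352 and 359 TPM in TMEM216, a difference of 0.62 (SE 0.0619, adjusted p = 3.52e-04) that held. TRIM16, a ubiquitin ligase relative, rose by 0.45 (SE 0.0963, adjusted p = 0.0499), and AKR1C3 by 0.42 (SE 0.0780, adjusted p = 0.0243). NFE2L2, which encodes NRF2, at -0.36 (adjusted p = 0.324), HMOX1 at -0.42 (adjusted p = 0.0900), GCLM at 0.38 (adjusted p = 0.104) and ALDH3A1 at 0.69 (adjusted p = 0.0769) did not pass, nor did the pentose phosphate enzyme TKT at 0.33 (adjusted p = 0.0759). The antioxidant element core TGACNNNGC, searched on both strands, was present in 9 of 31 matched promoters of the list, against 1515 of 10109 of tested features. None of the matched promoters of NQO1, AKR1C3 and TRIM16, the 3 members that rose, held it. It was present in 1 of 11 matched promoters of all higher features. Only 250 bases before to 50 bases after the start were searched. A missing match therefore does not show that a gene lacks the element. TRIM16 lost its call without Ctrl replicates 1, 2 and 3, Ctrl+IGF1 replicates 1 and 2, TMEM216 replicates 1, 2 and 3 and TMEM216+IGF1 replicates 1, 2 and 3 (0.37), and AKR1C3 without Ctrl replicates 1, 2 and 3, TMEM216 replicates 1, 2 and 3 and TMEM216+IGF1 replicate 1 (0.40).

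In lipid metabolism SCD, the desaturase that makes oleate, rose from 27.005, 26.7 and 29.2 TPM to 38.5, 45.4 and 51.3 TPM, a difference of 0.68 (SE 0.14, adjusted p = 0.0434), and lost its call without Ctrl replicates 1, 2 and 3, Ctrl+IGF1 replicate 1, TMEM216 replicates 2 and 3 and TMEM216+IGF1 replicates 1, 2 and 3 (0.58). No other of the 27 fatty acid synthesis genes passed, and none of 30 cholesterol genes. Of 25 fatty acid oxidation genes 23 lay below 0, against 62.0% of all features, with a median of -0.15, and 1 passed. PPARD, a nuclear receptor that controls oxidation genes, fell from 44.2, 43.7 and 44.4 TPM to 33.3, 31.6 and 32.4 TPM, a difference of -0.43 (SE 0.0737, adjusted p = 0.0162). CPT1A, the gate enzyme of mitochondrial oxidation, at -0.42 (adjusted p = 0.147) and PPARA at -0.56 (adjusted p = 0.131) did not pass. Glycolysis (25 tested) had no call. Ctrl replicates 1, 2 or 3, left out in turn, ended 5 of the 7 redox, lipid and carbon calls each, TMEM216 replicates 1, 2 and 3 ended 3, 5 and 3, Ctrl+IGF1 replicates 1 and 2 ended 2 and 1, TMEM216+IGF1 replicates 1, 2 and 3 ended 3, 2 and 2, and the smallest difference left was 0.822 of the full value; NQO1 and PCK2 held.

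Of 59 lysosomal genes tested 54 lay below 0, against 62.0% of all features, and 18 did not overlap in the lower direction (30.5%, against 15.5%). The median was -0.15, and -0.078 without TMEM216 replicate 1, against -0.048 and -0.025 for all features. There were 2 that fell (3.39%, against 0.941%): the protease cathepsin F, CTSF, stood at 20.5, 20.4 and 20.1 TPM in Ctrl and 11.2, 12.95 and 15.2 TPM in TMEM216, a difference of -0.60 (SE 0.12, adjusted p = 0.0340), and the sialidase NEU1 changed by -0.38 (SE 0.0782, adjusted p = 0.0434). TFEB, a master regulator of lysosome genes, lay at -0.57 (adjusted p = 0.153) and progranulin, GRN, at -0.32 (adjusted p = 0.131). Of 43 autophagy genes 1 fell (2.33%, against 0.941% of all features). This was PINK1, the kinase that marks damaged mitochondria, which stood at 44.7, 49.9 and 46.2 TPM against 26.8, 31.9 and 34.5 TPM, at -0.58 (SE 0.0925, adjusted p = 0.00974). None of the 3 held: CTSF lost its call without Ctrl replicates 1, 2 and 3, TMEM216 replicates 1 and 2 and TMEM216+IGF1 replicates 1, 2 and 3 (-0.50), NEU1 without Ctrl replicates 1, 2 and 3, Ctrl+IGF1 replicate 1, TMEM216 replicates 1, 2 and 3 and TMEM216+IGF1 replicates 1, 2 and 3 (-0.35), and PINK1 without Ctrl replicates 2 and 3 (-0.49).

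Receptors, stress and death genes and transcription factors had scattered lower calls. Over 390 tested genes in 15 lists 12 fell (3.08%, against 0.941% of all features) and none rose, and 2 held. SESN2, BBC3 and GDF15, counted here, are also counted as ATF4 effectors. GDF15, a stress cytokine, changed by -0.69 (SE 0.14, adjusted p = 0.0395), and the checkpoint gene SFN by -0.37 (SE 0.0710, adjusted p = 0.0295). The death effector BAK1 fell by 0.48 (SE 0.10, adjusted p = 0.0482). HOXB9, the one call among 13 HOX genes, stood at 18.7, 20.03 and 21.8 TPM in Ctrl and 11.3, 11.5 and 11.3 TPM in TMEM216, a difference of -0.78 (SE 0.0810, adjusted p = 5.14e-04) that held. It overlaps HOXB7 on the same strand. The receptor tyrosine kinase LTK fell by 0.80 (SE 0.17, adjusted p = 0.0443), with no other call among 21 such receptors, and the deacetylases HDAC5, at -0.81 (SE 0.13, adjusted p = 0.00957), and SIRT2, at -0.37 (SE 0.0713, adjusted p = 0.0289), also fell. Genes of the IGF and insulin axis gave 29 tested members and no call, IGF1R among them at -0.046 (adjusted p = 0.938). The 18 EGF receptor family genes, 35 WNT and 22 NOTCH genes, 15 Hedgehog genes and 32 genes of the TGF-beta pathway had none either. Leaving out Ctrl replicates 1, 2 or 3 ended 8, 9 and 10 of these 12 calls, TMEM216 replicates 1, 2 and 3 ended 5, 8 and 4, Ctrl+IGF1 replicate 1 ended 4, TMEM216+IGF1 replicates 1, 2 and 3 ended 6, 2 and 3, and the smallest difference left was 0.815 of the full value.

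Ciliary genes, the setting in which TMEM216 is known, gave no call besides TMEM216. Of 30 transition zone genes tested TMEM216 alone passed; among the others were MKS1 at -0.053 (adjusted p = 0.931), TMEM67 at 0.17 (adjusted p = 0.718), CEP290 at 0.21 (adjusted p = 0.587), RPGRIP1L at 0.10 (adjusted p = 0.879), B9D1 at -0.18 (adjusted p = 0.627), TMEM231 at -0.15 (adjusted p = 0.847), TCTN1 at -0.061 (adjusted p = 0.911) and TMEM107 at -0.29 (adjusted p = 0.223). None of the 46 tested genes of intraflagellar transport and the BBSome, which carry cargo in the cilium, passed. Their libraries did not overlap in 4 lower members (8.7%, against 15.5% of all features) and 6 higher ones (13.04%, against 6.3%). Over the 168 tested genes named TMEM, which share a name and not a function, 3 fell (1.79%, against 0.941% of all features) and 1, TMEM216, rose.

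Genes of protein synthesis, splicing and the cell cycle gave scattered calls. Over 366 tested genes in 8 lists 5 fell (1.37%, against 0.941% of all features) and 2 rose (0.55%, against 0.153%), with a median of -0.004, and 1 held. That gene, EEF1A2, an elongation factor otherwise found in nerve and muscle, stood at 25.4, 21.1 and 22.1 TPM in Ctrl and 9.62, 11.6 and 12.04 TPM in TMEM216, at -0.98 (SE 0.11, adjusted p = 7.37e-04). The start codon selection factor EIF1 fell from 981, 989 and 954 TPM to 717, 827 and 796 TPM, a difference of -0.32 (SE 0.0666, adjusted p = 0.0434). Of 57 genes of the G1 and S phases the CDK inhibitor CDKN2C rose by 0.38 (SE 0.0665, adjusted p = 0.0206), and of 70 genes of the G2 phase and mitosis MYBL2 fell by 0.38 (SE 0.0795, adjusted p = 0.0466). Splicing factor SRSF1 stood at 258, 252 and 264 TPM in Ctrl and 141, 166 and 184 TPM in TMEM216 and fell by 0.66 (SE 0.13, adjusted p = 0.0295), while ENSG00000266086, a feature that overlaps it on the same strand, stood at 111, 105 and 91.4 TPM and 207, 153 and 134 TPM and rose by 0.66 (SE 0.14, adjusted p = 0.0482). The 2 features summed to 369, 357 and 355 TPM in Ctrl and to 348, 319 and 318 TPM in TMEM216, so the sum was lower in each TMEM216 library by a smaller margin than SRSF1 alone. The 82 cytoplasmic and 78 mitochondrial ribosomal proteins, 37 and 41 nuclear subunits of respiratory complex I and of complexes III, IV and ATP synthase and 47 proteasome subunits had no call. The median of the cytoplasmic ribosomal proteins was 0.061, and 0.0001 without TMEM216 replicate 1. Ctrl replicates 1, 2 or 3, left out in turn, ended 6 of the 7 calls in the splicing, translation and cell cycle lists each, TMEM216 replicates 1, 2 and 3 ended 4, 6 and 2, Ctrl+IGF1 replicate 1 ended 3, TMEM216+IGF1 replicates 1, 2 and 3 ended 3, 2 and 4, and the smallest difference left was 0.816 of the full value.

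Of all 109 lists with a tested member, 48 had lower calls only, 10 had higher calls only, 6 had both and 45 had none; lists share genes. The 434 tested zinc finger genes named ZNF gave no call, and 217 solute carriers gave 5 lower (2.3%, against 0.941% of all features) and 1 higher (0.46%, against 0.153%). The 10 COMMD genes, which serve endosomal sorting, gave 1: COMMD10 rose from 28.8, 31.7 and 33.05 TPM to 50.4, 46.01 and 44.9 TPM, a difference of 0.58 (SE 0.0904, adjusted p = 0.00957). By level, no feature with a mean under 1 TPM passed, and 1.54% of those at 100 TPM or more did.

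The same comparison in the 6 libraries with IGF1, which share no library with the first and only the estimate of spread, served as a side measure. There 211 features passed (1.61%), 120 higher (0.918%) and 91 lower (0.696%). Of the 123 lower features without IGF1, 48 also fell with IGF1, which is 39.0% of the first list and 52.7% of the second, and of the 20 higher features 13 also rose, 65% and 10.8%. No feature passed in opposite directions. Differences had the same sign with IGF1 in 119 of the 123 lower and in all 20 higher features. The median over the 123 was -0.59 without IGF1 and -0.34 with it, and over the 20 it was 0.57 and 0.58, while the median of all features was -0.048 and 0.048; the features were chosen by their difference without IGF1. Libraries with IGF1 did not overlap in that direction in 104 of the 123 and 16 of the 20, against 7.69% and 12.0% of all features. Of the 32 held lower genes 25 fell with IGF1 too, and all 5 held higher genes rose. In the 148 tested genes of the amino acid lists 19 fell with IGF1, against 0.696% of all features, and none rose. ASNS lay at -0.98, CHAC1 at -2.03 and CTH at -1.28, and PCK2, counted elsewhere, at -1.03. The tRNA synthetases gave none. In the 211 tested genes of the cytokine and antigen presentation lists 5 fell and 12 rose, against 0.696% and 0.918% of all features. CSF3 lay at 0.053 and SRSF1 at 0.21.

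**Figure D4:**
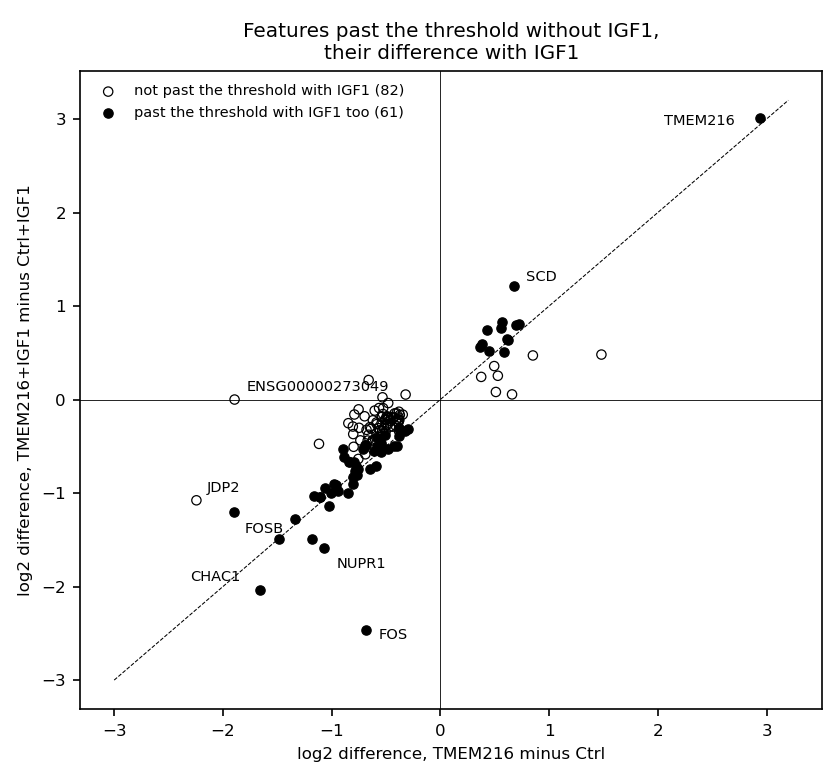
Each point is 1 of the 143 features past the threshold without IGF1, with its log2 difference without IGF1 on the horizontal axis and with IGF1 on the vertical axis; filled points (61) also passed with IGF1, and the dashed line marks equal differences. The lower features had a median of -0.34 with IGF1 against -0.59 without, FOS lies below it and JDP2 above it.

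The difference between the 2 effects was tested as an interaction, and 2 features passed (0.0153%): FOS and ENSG00000273049. FOS lay at -0.68 without IGF1 and at -2.47 with it, a further difference of -1.79. ENSG00000273049, an unnamed feature that overlaps HOXC6 and HOXC5 on the same strand, stood at 1.90, 2.94 and 3.49 TPM in Ctrl and was listed at 0 in all TMEM216 libraries and in all libraries with IGF1. It passed the filter only through the Ctrl libraries where it was high, and the zeros add no spread. Its call, its place among the held features and its interaction all rest on those Ctrl libraries. For JDP2, which lay at -1.08 with IGF1 (adjusted p = 0.136), the difference between the effects did not pass.

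Calls were unequal across base composition. Transcripts in GENCODE v29 gave a GC content for 139 of the called features, with a median of 56.2% in lower, 50.9% in higher and 48.1% in all tested features. In 5 equal groups of features, from the lowest GC content to the highest, the lower calls numbered 6, 15, 16, 34 and 50, and the median difference of all features went from 0.016 through -0.033, -0.056 and -0.080 to -0.096. The medians with IGF1 stepped down in the same order, from 0.13 to -0.058. After each library was corrected for GC content and length, an alternative added after the data were seen, 180 features passed, 140 lower and 40 higher, and 112 of the 139 calls remained. Lower transcripts had a median length of 2774 bases and higher ones 2307, against 3637 for all. The sources used here do not name the annotation the authors counted against, so these lengths and GC contents are approximate.

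**Figure D5:**
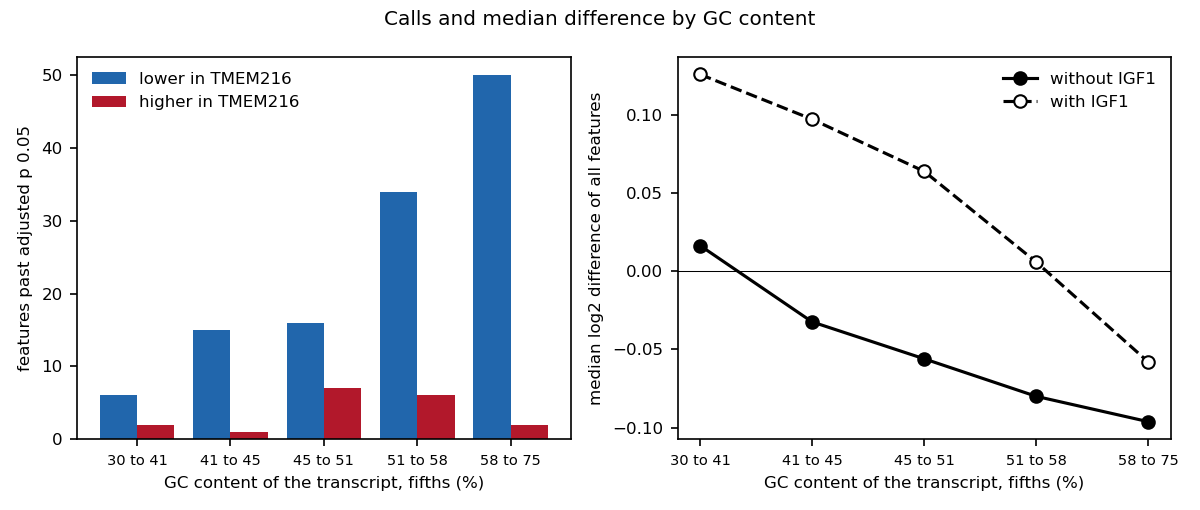
Left, the number of features past the threshold in each of 5 equal groups by transcript GC content, lower in blue and higher in red; right, the median log2 difference of all features in the same groups, without IGF1 (filled, solid) and with IGF1 (open, dashed). Lower calls climb from 6 to 50 from the lowest to the highest group, and both medians step downward.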

How the data were processed

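Libraries of total RNA were built with the TruSeq RNA kit of Illumina, per the labels' protocols. The authors deposited TPM values per feature and library, and the submitters' processing notes name HISAT2, StringTie and RSEM without versions. The sources used here give no genome build, annotation, library strand or read depth. Of the 21574 features, 1131 are assembled features with MSTRG names, 519 of them tested.

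Values were taken as log2(TPM + 1) from the deposited TPM, without further scaling, for features that reached a TPM of 1 in at least 3 of the 12 libraries. This scale understates the changes of weakly expressed genes. A single model held all 4 groups (limma 3.58.1, R 4.3.3 and the data.table package, version 1.17.8), moderating variances along the mean-variance trend; contrasts were two-sided, the adjusted p is Benjamini-Hochberg over the 13071 features with a threshold of 0.05, and SE is the moderated standard error. The fit was tested on simulated data. Lists were counted, not tested. Leading genes were the 15 largest rises and 15 largest falls among called features whose mean TPM was 5 or more, whose groups did not overlap and which had a proper symbol; in each list described, up to 4 members of smallest p and the defining members are named, except that a few items are not reported here. The members and the lists were chosen with earlier results of these data known. Gene names, overlaps, lengths and GC content come from GENCODE v29, promoters from RefSeq (GRCh38.p14, 10109 of 13071 features matched). Plots used matplotlib 3.10.9 (Python 3.11.15). Alternatives were the pseudocount, the filter, 2 scalings, no trend, the 6 libraries alone, the replicate block, each library left out, no MSTRG features and, added after the data were seen, both divergent libraries left out and a correction for GC content and length.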

Additional observations from a re-analysis of the deposited data

Results flagged for a closer look

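The difference between TMEM216 and Ctrl cells changed with IGF1 in 2 features by limma's interaction test with Benjamini-Hochberg adjustment. FOS fell in TMEM216 without IGF1, and the difference with IGF1 was larger by -1.79 on the log2 scale, lower in all 3 libraries of each comparison. ENSG00000273049 differed by 1.89, from 1.90, 2.94 and 3.49 TPM in the 3 Ctrl libraries to a listed 0 in the other 9. It passed the filter only through those 3 libraries, and the zeros add no spread, so its test rests on them.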

How the results depend on the processing

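None of the 143 called features reversed in any of the 23 settings run. With a single library left out a reversal was not possible, since the groups of all 143 did not overlap. Of the 143, 36 kept their call in every setting in which they were tested, which for ENSG00000273049 was 22. The count of calls moved most when libraries were left out. Without Ctrl replicates 1, 2 or 3 it was 48, 43 and 50. Every such fit also has fewer samples, and how much of the change comes from that was not tested. With each library left out in turn the features past the threshold (143) ranged from 43 without Ctrl replicate 2 to 273 without Ctrl+IGF1 replicate 3, the higher ones (20) from 6 to 50, the lower ones (123) from 36 to 223, those past it both without and with IGF1 (61) from 30 to 77, and those whose effect differed with IGF1 (2) from 1 to 3. Fitting only the 6 libraries compared left 49 calls, 7 higher and 42 lower, from fewer samples. Leaving out Ctrl+IGF1 replicate 3 and TMEM216 replicate 1 together gave 288, 53 higher and 235 lower, with 110 also past the threshold with IGF1; the cause was not tested. Quantile normalization gave 60 higher calls and 96 shared with IGF1, and median-of-ratios scaling gave 55 and 101; the median of all features moved from -0.048 to 0.004 and 0.0001. Correcting for GC content and length gave 40 higher calls. The effect differed with IGF1 in 1 feature in place of 2 with a pseudocount of 0.1, with a minimum TPM of 5, under both scalings, with the replicate block, with both divergent libraries left out and after the GC and length correction. A pseudocount of 0.1 (139 calls), no filter (151), a minimum TPM of 5 (142), no mean-variance trend (145) and no MSTRG features (143) moved the count of calls little.

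Whether replicate numbers pair the samples cannot be settled from deviations within groups of 3 libraries. Deviations of same-numbered Ctrl and TMEM216 libraries from their group means correlated at 0.11, -0.0024 and 0.11 for numbers 1, 2 and 3. Between these groups, replicates 1 and 3 correlated best with their own number, and replicate 2 of both groups better with another number. A fit with the number as a replicate block gave 77 calls, 11 higher and 66 lower, with 40 shared with IGF1 and 1 that differed with it. Read depth is unknown from TPM, so what depth limits cannot be stated.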

Other observations

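Several lower genes belonged to none of the lists. TSC22D3, a glucocorticoid-induced leucine zipper protein, stood at 13.9, 14.1 and 15.5 TPM in Ctrl and 7.80, 7.57 and 8.47 TPM in TMEM216 (log2 difference -0.79, limma adjusted p = 7.37e-04). MCAM, the adhesion molecule CD146, stood at 97.96, 97.9 and 105 TPM against 51.5, 63.1 and 65.7 TPM, with TMEM216 replicate 1 lowest (adjusted p = 0.00396). PRKCZ, an atypical protein kinase C of cell polarity, stood at 22.7, 21.3 and 21.4 TPM against 13.6, 14.8 and 13.1 TPM (adjusted p = 0.00377). SERINC2, linked to serine incorporation into lipids, stood at 29.7, 28.9 and 29.99 TPM against 18.1, 14.1 and 16.1 TPM (adjusted p = 0.00359), and the kinase PIM1 at 40.1, 36.6 and 41.2 TPM against 25.1, 26.98 and 26.6 TPM (adjusted p = 0.00451). These 5 held in every leave-one-out fit, and their groups did not overlap. In all, 50 of the 143 called features were in no list.

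Among the 61 features with a log2 difference of 1 or more in size that did not pass, 2 overlapping features of one strand exchanged values in a single library. PTP4A1 stood at 106, 102 and 112 TPM in Ctrl and at 1.54, 109.7 and 101 TPM in TMEM216, and ENSG00000285976 at 3.98, 4.804 and 3.57 TPM and 99.4, 2.37 and 2.10 TPM. TMEM216 replicate 1 thus listed PTP4A1 far below, and its partner far above, all other libraries of the comparison. The pair was singled out after its values were seen.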
